A study of Castanea mollissima with 18 samples.

Results

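The genes described here are those of Chinese chestnut (Castanea mollissima) whose level was highest in callus libraries 1, 2 and 6, far above every other library of the series. They were chosen by measured values: on the scale y = log2(FPKM + 1), the lowest of callus 1, 2 and 6 had to exceed the highest of the other 15 libraries by at least 1.5, among genes with at least 1 FPKM in 3 or more libraries. FPKM are fragment counts scaled by the length of the gene model and by the number of mapped fragments of the library. Of 33991 genes in the table, 22131 had at least 1 FPKM in 3 or more libraries, and 459 of these (2.07%) met the rule. The difference between the lowest of callus 1, 2 and 6 and the highest of the other libraries is called the gap below.

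RNA sequencing was done on 6 libraries labelled callus and 12 labelled somatic embryo. The labels spell out no line, genotype, medium, age, stage or treatment for either tissue. Each title carries the codes 0, ys and pe, alike in all 18 libraries, which no label explains. Nothing says whether libraries come from separate cultures, so the spread between libraries may be technical. Callus is a mass of unorganised, dividing plant cells kept in culture. Somatic embryos are embryo-like structures that arise in culture from body cells, often by way of an embryogenic callus, and they pass through stages much like those of a seed embryo. Callus of a plant can differ in its ability to form embryos, and gene expression is one of the ways in which such callus types are told apart.

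The 18 libraries lay in sets of 3 by their own expression, which no label names: callus 1, 2 and 6, callus 3, 4 and 5, and somatic embryos 5 to 7, 8 to 10, 2, 3 and 11, and 1, 4 and 12. Spearman's correlation over the 22131 genes was at least 0.996 within callus 1, 2 and 6 and at least 0.995 within callus 3, 4 and 5, and at most 0.916 between these sets. Within the embryo sets it was at least 0.995, 0.968, 0.957 and 0.935, in the order given. The last set was not separate from the rest, since a library of it reached 0.942 with one outside it. Because the sets come from the data, differences between them are given as descriptions, and p-values that count close libraries as independent are too small. The IDs carry no gene names and no annotation was used, so the tissues could not be set against marker genes, no gene can be given a role, and no sequence is shown. Summed FPKM ranged from 950919 to 1067585, and the read depth is unknown.

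In such bulk samples more cells of a type and more RNA per cell cannot be told apart. The members were a sizeable share of the RNA in callus 1, 2 and 6 and a small one elsewhere. They held 4.89%, 4.99% and 5.00% of the summed FPKM in callus 1, 2 and 6, against 0.836%, 1.02% and 0.855% in callus 3, 4 and 5 and 0.0825% to 0.156% in the 12 embryo libraries. The median member stood at 12.8, 12.6 and 12.9 FPKM in callus 1, 2 and 6. In callus 3, 4 and 5 it stood at 0.35, 0.51 and 0.47 FPKM, and in the embryos at 0.07 to 0.38 FPKM. All 459 members reached 1 FPKM in callus 1, 2 and 6, which the rule requires, whereas 183 to 191 did so in callus 3, 4 and 5 and 78 to 144 in an embryo library. Of the embryo libraries, 11 had the fewest and 5 the most.

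**Figure D1:**
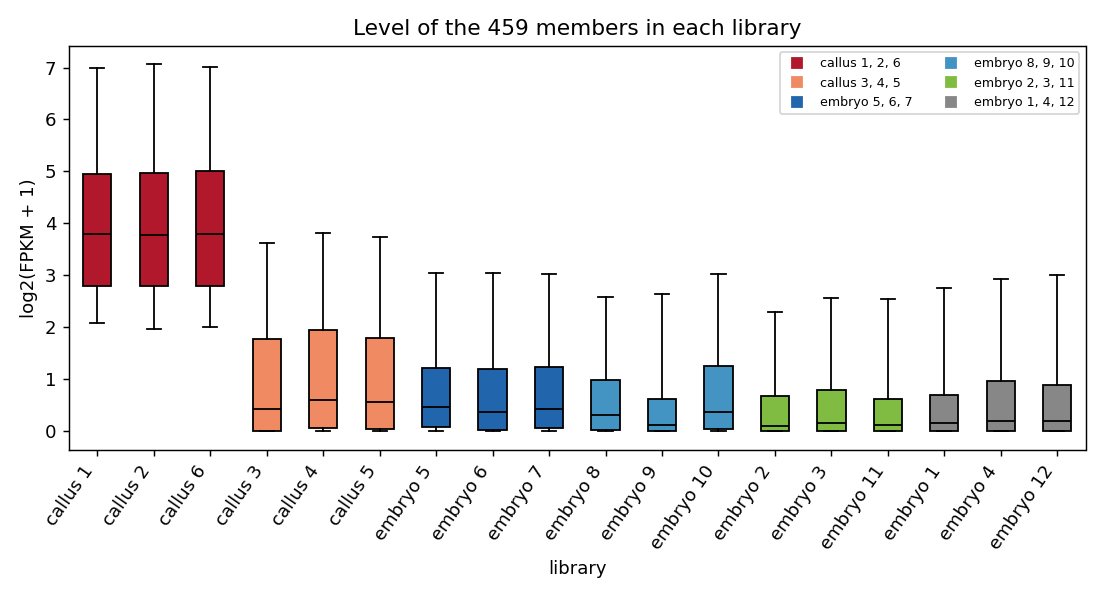
Level of the 459 members in each of the 18 libraries, as log2(FPKM + 1) on the vertical axis, with sets of close libraries in 1 colour. Boxes span the quartiles with the median as a line and whiskers run from the 5th to the 95th percentile of members; callus 1, 2 and 6 stand above the rest by the rule, the upper quartile is 2.41 to 2.87 FPKM in callus 3, 4 and 5 and 0.535 to 1.39 FPKM in the embryos.

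Gaps ran from 1.5 to 5.09 with a median of 2.06 (log2). A gap under 2 was found in 205 members, 2 to 3 in 189, 3 to 4 in 51 and 4 or more in 14. Mean FPKM in callus 1, 2 and 6 ran from 2.30 to 11468 with a median of 12.6; it was under 5 in 87 members, 5 to 100 in 342, and 100 or more in 30, of which 7 exceeded 1000. Callus 1, 2 and 6 differed little from each other: the SD of y among them had a median of 0.10 over members. The highest of these libraries was callus 2 in 175 members, callus 6 in 145 and callus 1 in 139.

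For 186 members none of the other 15 libraries reached 1 FPKM, and 13 were listed at 0 in all 15. Another 273 reached 1 FPKM in at least 1 of the 15. In 38 members every embryo library reached 1 FPKM, in 186 some did, and in 235 none did. The library next below callus 1, 2 and 6 was one of callus 3, 4 and 5 in 174 members. The other 285 were counted under an embryo. They include the 13 members listed at 0 in all 15 libraries, which have no next library and were counted under somatic embryo 1. Callus 4 and somatic embryo 10 came next most often, with 99 members each, followed by callus 5 with 49 and somatic embryo 5 with 37.

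The members with the largest gaps were close to 0 in nearly all other libraries. Cm00G00029.gene, with the largest gap (5.09), stood at 57.9, 58.4 and 53.5 FPKM in callus 1, 2 and 6 and at 0.41, 0.60 and 0.21 FPKM in callus 3, 4 and 5. Its 12 embryo libraries ran from 0 to 0.46 FPKM with a median of 0.04. The remaining libraries thus overlapped each other near 0. Cm04G01190.gene was similar, at 40.3, 42.0 and 38.3 FPKM in callus 1, 2 and 6, at 0.25, 0 and 0.06 FPKM in callus 3, 4 and 5, and at 0 to 0.22 FPKM in the embryos. Cm10G01988.gene stood at 83.2, 80.1 and 76.0 FPKM in callus 1, 2 and 6, at 0.12, 0.10 and 0.24 FPKM in callus 3, 4 and 5, and at 0.02 to 1.46 FPKM in the embryos, with somatic embryo 4 the highest. Cm07G01209.gene, at 55.1, 58.2 and 77.5 FPKM in callus 1, 2 and 6, reached no more than 0.28 FPKM in callus 3, 4 and 5 and no more than 1.04 FPKM in an embryo.

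A different pattern with a gap nearly as large was seen in Cm11G01944.gene, for which callus 3, 4 and 5 were clear of the embryos. It had 451, 506 and 473 FPKM in callus 1, 2 and 6, 10.3, 14.0 and 12.3 FPKM in callus 3, 4 and 5, and 0 to 2.06 FPKM in the embryos, with a median of 0.405. No embryo library overlapped either callus set. Cm05G02281.gene repeated this at a lower level, with 58.7, 59.96 and 57.7 FPKM in callus 1, 2 and 6, 1.25, 1.45 and 1.18 FPKM in callus 3, 4 and 5, and at most 0.41 FPKM in an embryo. Cm07G01770.gene and Cm07G01771.gene, which follow each other in ID order, were also among the 8 largest gaps. Cm07G01770.gene had 182, 214 and 231 FPKM in callus 1, 2 and 6, 3.18, 2.88 and 3.84 FPKM in callus 3, 4 and 5, and 0 to 6.38 FPKM in the embryos, with somatic embryo 4 above callus 3, 4 and 5. Cm07G01771.gene had 94.7, 95.8 and 85.1 FPKM in callus 1, 2 and 6, was at 0, 0.09 and 0 FPKM in callus 3, 4 and 5, and was again highest among embryos in somatic embryo 4, at 2.08 FPKM.

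A few members carried most of the members' RNA. The 7 members above 1000 FPKM made up 73.6% to 74.1% of the members' summed FPKM in callus 1, 2 and 6, 86.8% to 87.9% in callus 3, 4 and 5, and 37.5% to 65.0% in the embryos. Cm04G00014.gene was the most abundant, at 11533, 11544 and 11329 FPKM in callus 1, 2 and 6. It stood at 1913, 2781 and 1930 FPKM in callus 3, 4 and 5 and between 8.19 and 158 FPKM in the embryos, with a median of 69.5 FPKM. Its mean in callus 1, 2 and 6 was 5.19 times that of callus 3, 4 and 5 and 154 times that of the embryos. None of the 3 groups overlapped.

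Cm04G00009.gene, whose ID is 5 lower, stood at 8525, 8710 and 8357 FPKM in callus 1, 2 and 6, at 1108, 1694 and 1115 FPKM in callus 3, 4 and 5, and at 5.03 to 86.7 FPKM in the embryos. In both genes callus 4 was the highest of callus 3, 4 and 5, embryos 2 and 11 were the lowest embryos and embryo 12 the highest. Cm01G00602.gene had 5985, 6644 and 6882 FPKM in callus 1, 2 and 6 and 1909, 2029 and 2012 FPKM in callus 3, 4 and 5, against 8.26 to 76.1 FPKM in the embryos. For this gene the highest embryos were 5, 6 and 7, at 70.8 to 76.1 FPKM, and the lowest were 8, 9 and 10, of which the highest had 17.0 FPKM.

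Cm07G00876.gene, at 3191, 3068 and 3116 FPKM in callus 1, 2 and 6 and 736, 745 and 754 FPKM in callus 3, 4 and 5, varied widely among embryos, from 3.30 FPKM in somatic embryo 10 to 317 FPKM in somatic embryo 4. Cm07G00667.gene was at 2537, 2602 and 3010 FPKM in callus 1, 2 and 6, at 794, 800 and 788 FPKM in callus 3, 4 and 5, and at 18.3 to 262 FPKM in the embryos. Its lowest embryos were 8, 9 and 10 (18.3, 26.5 and 21.1 FPKM). Cm01G04463.gene had the highest median embryo level of these 6 abundant members. It stood at 1917, 2026 and 1993 FPKM in callus 1, 2 and 6 and at 582, 542 and 576 FPKM in callus 3, 4 and 5, against 91.3 to 489 FPKM in the embryos, of which somatic embryo 11 was the highest. Callus 3, 4 and 5 lay above all embryos in each of these 3 genes.

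Where callus 3, 4 and 5 stood was measured for each member as a position, which is 0 at the median of the 12 embryo libraries and 1 at the median of callus 1, 2 and 6 on the y scale. The median position over members was 0.0453 (0.0401 for callus 3, 0.0568 for callus 4 and 0.0372 for callus 5), so for a typical member callus 3, 4 and 5 stood almost level with the embryos. The quartiles were 0 and 0.247 and the extremes -0.366 and 0.768. A position over 0.5 was found in 30 members, 0.25 to 0.5 in 84, 0.1 to 0.25 in 68 and above 0 up to 0.1 in 100; 87 were at exactly 0 and 90 below 0. No member reached 1, which the rule prevents. Many members lie near the floor: in 254 none of callus 3, 4 and 5 reached 1 FPKM, and over the 273 members with 1 FPKM in at least 1 of the 15 libraries the median position was 0.183.

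Callus 3, 4 and 5 lay wholly above all 12 embryo libraries in 112 members (24.4%), where 15.5% of all 22131 genes did so. They lay wholly below in 1 member (0.218%), where 8.41% of all genes did so. In the remaining 346 they overlapped the embryos, which was also the commonest case over all genes. A member with any embryo at 0 cannot have callus 3, 4 and 5 wholly below. Each embryo library listed 78 to 176 members at 0. A member with one of callus 3, 4 and 5 at 0 cannot have them wholly above. These libraries listed 125, 98 and 111 members at 0. How far zeros set these counts was not tested. Of the 273 members with 1 FPKM in at least 1 of these 15 libraries, 104 (38.1%) had callus 3, 4 and 5 above all embryos, against 15.7% of the 21642 genes that met the same limit. The rule treats these 15 libraries alike and limits only their highest value. A high level in callus 3, 4 and 5 is therefore capped in the members, as is one in the embryos.

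With callus 1, 2 and 6 left out, limma was fitted to callus 3, 4 and 5 against the 12 embryos across all 22131 genes. With a Benjamini-Hochberg adjusted p under 0.05 and a log2 fold change past 1 in either direction required, 89 members (19.4%) rose in callus 3, 4 and 5, against a background of 6.9% of all genes tested. None of the 459 fell by limma, against a background of 5.49%. With a pseudocount of 0.1, 3 of the 709 members then found fell, where 8.02% of all genes did. At an unadjusted limma p under 0.05 and any fold, 149 of the 459 had a higher level and 5 a lower one. The share of all genes at that limit was not computed. At any fold, 121 members (26.4%, all genes 14.1%) had an adjusted p under 0.05 with a higher level and 2 (0.436%, all genes 7.18%) with a lower one. With the fold limit the other 370 did not pass. Among them are the 186 members with none of these 15 libraries at 1 FPKM, for which no log2(FPKM + 1) difference of 1 was possible in either direction. Of all 22131 genes, 21642 reached 1 FPKM in at least 1 of these libraries, so this limit weighed more on the members. On the same scale a fall of 1 was not possible in the 235 members with 1 FPKM in no embryo. Nor was a rise of 1 possible in the 254 members with 1 FPKM in none of callus 3, 4 and 5. How far this sets the absence of falling members was not tested. Over all members the median log2 fold change (callus 3, 4 and 5 minus embryo) was 0.08, and over all genes tested it was 0.11, so the calls came from a minority of members while the typical one lay near 0. With median-of-ratios scaling the median of all genes was -0.03 and 80 of 439 members (18.2%) rose, where 5.35% of the genes tested did. Near-identical libraries were counted as independent and the embryos hold several sets, both of which affect these p-values.

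**Figure D2:**
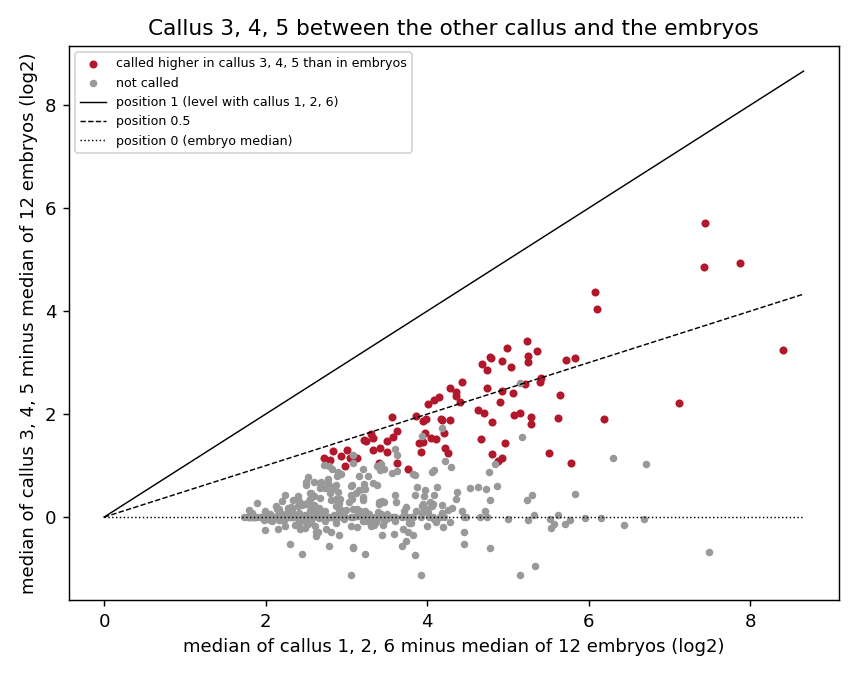
Each point is 1 of the 459 members; the horizontal axis is the median of callus 1, 2 and 6 and the vertical axis the median of callus 3, 4 and 5, both minus the median of the 12 embryo libraries (log2 scale). Lines mark positions 1, 0.5 and 0. Above the line for 0 lie 282 members, among them the 89 called higher in callus 3, 4 and 5 by limma (red). Another 87 lie on it and 90 lie below it.

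The highest positions belonged to members of quite different abundance. Cm01G00602.gene, described above, had the highest at 0.768 (log2 fold change of callus 3, 4 and 5 over embryos 6.04 ± 0.64 SE, limma adjusted p = 9.66e-06). Cm01G01241.gene was next at 0.718, with 81.1, 81.2 and 76.3 FPKM in callus 1, 2 and 6, 20.9, 25.2 and 24.0 FPKM in callus 3, 4 and 5, and 0 to 1.61 FPKM in the embryos (log2 fold change 4.10 ± 0.29 SE, limma adjusted p = 1.75e-07). Embryos 5, 12 and 6 were the highest of the embryos. Cm07G00876.gene had a position of 0.662 and the largest error of these 5 genes (log2 fold change 4.29 ± 1.04 SE, limma adjusted p = 0.00874).

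Cm05G01079.gene had a position of 0.657. It stood at 38.7, 38.5 and 35.3 FPKM in callus 1, 2 and 6, at 11.1, 9.97 and 11.2 FPKM in callus 3, 4 and 5, at 2.41, 2.19 and 2.38 FPKM in embryos 5, 6 and 7, and at no more than 0.92 FPKM in another embryo (log2 fold change of callus 3, 4 and 5 over embryos 2.90 ± 0.40 SE, limma adjusted p = 0.000139). Cm01G00252.gene (position 0.653) had 44.8, 42.0 and 44.6 FPKM in callus 1, 2 and 6, 10.5, 12.0 and 12.3 FPKM in callus 3, 4 and 5, and 0.02 to 1.52 FPKM in the embryos (log2 fold change 3.20 ± 0.25 SE, limma adjusted p = 3.77e-07). In both genes the order was callus 1, 2 and 6, then callus 3, 4 and 5, then embryos 5, 6 and 7, then the rest, with no overlap between these steps.

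At the other end of the range, callus 3, 4 and 5 lay under the embryo median while some embryos expressed the gene. Cm05G00573.gene had the lowest position, -0.366. It stood at 17.7, 19.9 and 22.4 FPKM in callus 1, 2 and 6, at 0.14, 0.20 and 0.16 FPKM in callus 3, 4 and 5, and anywhere between 0 and 4.73 FPKM across embryos, with a median of 1.52. The embryos with more than 2 FPKM were 2, 3, 8, 9 and 11, so the embryos themselves were divided. The difference did not pass (log2 fold change -1.04 ± 0.53 SE, limma adjusted p = 0.169).

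Cm07G01216.gene (position -0.286) was listed at 0 in callus 3, 4 and 5, had 32.2, 23.5 and 33.4 FPKM in callus 1, 2 and 6, and reached 6.63 FPKM in the embryos, with embryos 8, 9 and 10 at 2.64, 6.63 and 3.36 FPKM. Its log2 fold change of -1.17 ± 0.50 SE did not pass (limma adjusted p = 0.111), though it did with a pseudocount of 0.1 (limma adjusted p = 0.0318); its adjusted p ran from 0.0318 to 0.254 over all settings. Cm03G00802.gene (position -0.292) stood at 8.70, 8.02 and 7.91 FPKM in callus 1, 2 and 6, at 0, 0.19 and 0 FPKM in callus 3, 4 and 5, and at 0 to 1.70 FPKM in the embryos. Callus 3, 4 and 5 here overlapped embryos 2, 3 and 11.

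Cm01G02225.gene (position -0.224) had 19.1, 19.01 and 23.7 FPKM in callus 1, 2 and 6 and 0, 0.30 and 0.56 FPKM in callus 3, 4 and 5. Embryos 5, 6 and 7 were its highest embryos at 2.82, 2.94 and 2.39 FPKM, and embryos 1 and 12 were listed at 0. Cm09G00083.gene (position -0.225) had 12.0, 13.0 and 10.9 FPKM in callus 1, 2 and 6, 1.68, 0.33 and 0.85 FPKM in callus 3, 4 and 5, and 0.71 to 2.95 FPKM in the embryos, so that callus 3 alone reached the embryo median of 1.66 FPKM. The member with callus 3, 4 and 5 wholly below the embryos was Cm03G00213.gene, singled out after its values were seen. It had 297, 304 and 321 FPKM in callus 1, 2 and 6, 2.97, 2.74 and 3.00 FPKM in callus 3, 4 and 5, and 3.57 to 60.6 FPKM in the embryos, of which embryos 12 and 1 (60.6 and 30.2 FPKM) were far above the others. By limma its difference did not pass (callus 3, 4 and 5 minus embryo -1.40 ± 0.62 SE on the log2 scale, adjusted p = 0.123).

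The comparison that the labels give, callus against somatic embryo over all 18 libraries, was run for completeness. By limma 415 of the 459 members rose in callus, where 11.3% of all genes tested did. The rule used this contrast, so nothing follows from that count. The other 44 did not pass in this fit, which counts callus 3, 4 and 5 as callus. Cm03G00213.gene is one of them (log2 fold change 1.76 ± 0.99 SE, limma adjusted p = 0.155).

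Among the embryo sets, 5 to 7 had the higher levels, and the order of the other sets depended on the measure. The mean y of a set had a median over members of 0.43 in embryos 5, 6 and 7, 0.28 in embryos 8, 9 and 10, 0.22 in embryos 1, 4 and 12 and 0.12 in embryos 2, 3 and 11, compared with 0.48 in callus 3, 4 and 5. By the members' share of summed FPKM, which the abundant members set, embryos 5, 6 and 7 held 0.156%, 0.132% and 0.131%, embryos 8, 9 and 10 held 0.0825% to 0.111%, embryos 1, 4 and 12 held 0.1104%, 0.135% and 0.122%, and embryos 2, 3 and 11 held 0.0831%, 0.120% and 0.116%. Embryos 8, 9 and 10 were thus not above embryos 1, 4 and 12 or embryos 2, 3 and 11 by this measure, and somatic embryo 4 lay within the range of embryos 5, 6 and 7. Of the 224 members with 1 FPKM in at least 1 embryo, the highest set mean was that of embryos 5, 6 and 7 in 86, embryos 8, 9 and 10 in 83, embryos 1, 4 and 12 in 41 and embryos 2, 3 and 11 in 14. The lowest was that of embryos 2, 3 and 11 in 99, embryos 8, 9 and 10 in 69, embryos 1, 4 and 12 in 34 and embryos 5, 6 and 7 in 22. Embryos 8, 9 and 10 were thus often at either end in these members. Set means were not ranked in this way over all genes. Over all 22131 genes, embryos 8, 9 and 10 were the set most often wholly above (16.4%) and most often wholly below (10.5%) the other 9 embryos.

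A set was counted as clear when its 3 libraries all lay above, or all below, the other 9 embryos. Embryos 5, 6 and 7 were clear above in 72 members (15.7%), where 11.5% of all genes were, and clear below in 2 (0.436%), where 6.64% were. Embryos 8, 9 and 10 were clear above in 26 members (5.66%, background 16.4%) and clear below in 28 (6.10%, background 10.5%). Embryos 1, 4 and 12 were clear above in 12 (2.61%, background 9.89%) and below in 6 (1.31%, background 3.69%). Embryos 2, 3 and 11 were clear above in 2 (0.436%, background 3.95%) and below in 15 (3.27%, background 9.86%). Of these 8 shares, embryos 5, 6 and 7 above the rest was the one over its background. The 17 members listed at 0 in all embryos cannot be clear. A set with any library at 0 cannot be clear above. Nor can a set be clear below if an embryo outside it is at 0. Members at 0 numbered 78, 106 and 90 in embryos 5, 6 and 7 and 114, 169 and 104 in embryos 8, 9 and 10. They numbered 168, 166 and 176 in embryos 2, 3 and 11 and 161, 133 and 148 in embryos 1, 4 and 12. How far these zeros set the 8 shares was not tested. Among members with an embryo at 1 FPKM or more, embryos 5, 6 and 7 were clear above in 50 (22.3%), against 11.4% of all genes with that limit, and embryos 8, 9 and 10 in 22 (9.82%), against 16.9%.

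The count for embryos 8, 9 and 10 clear above rose most when somatic embryo 9 was left out. Without it, as computed after the data were seen, the other two were clear above in 85 of 462 members (18.4%), where 19.4% of all genes were. Somatic embryo 9 reached 1 FPKM in 85 members, against 114 in somatic embryo 8 and 140 in somatic embryo 10, and listed 169 members at 0, against 114 and 104. The count for embryos 2, 3 and 11 went to 7 of 460 (1.52%, background 8.18%) without somatic embryo 3, and that for embryos 1, 4 and 12 to 19 of 460 (4.13%, background 13.5%) without somatic embryo 1, both still under their background. Counts clear below moved as well: to 42 of 460 (9.13%, background 21.5%) for embryos 2, 3 and 11 without somatic embryo 3, to 20 of 468 (4.27%, background 6.73%) for embryos 1, 4 and 12 without somatic embryo 4, and to 4 for embryos 5, 6 and 7 without somatic embryo 5 or 7. For embryos 5, 6 and 7 the count clear above was 82 to 93 with 1 of them left out, a share of 17.7% to 20.1% against 12.4% to 13.0% of all genes.

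**Figure D3:**
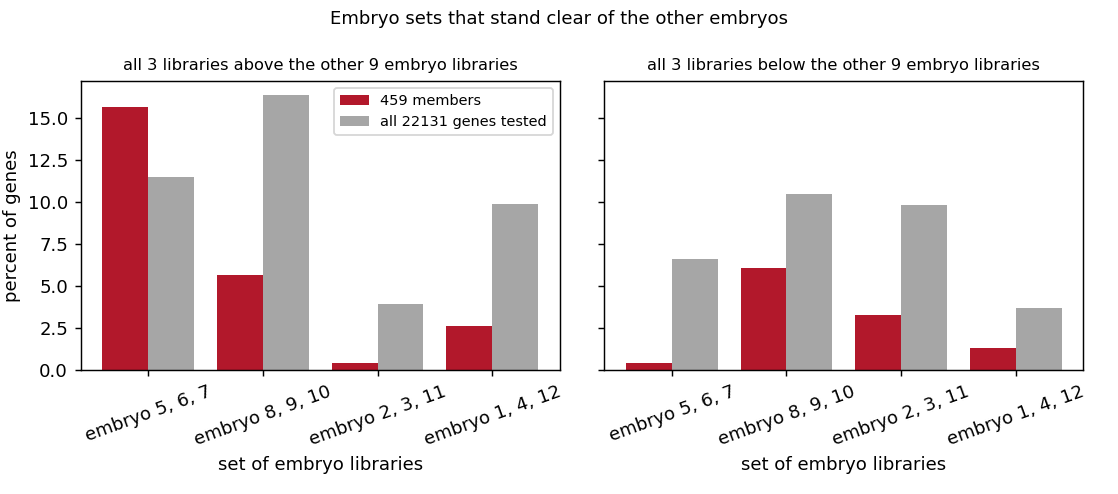
Percent of the 459 members (red) and of all 22131 genes tested (grey) for which the 3 libraries of an embryo set all lie above (left) or all below (right) the other 9 embryo libraries. Embryos 5, 6 and 7 above the rest is the share in which members exceed all genes, 15.7% against 11.5%.

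Steps of 2-fold between embryo sets were few, in the members as over all genes. A set lay at least 2-fold (1 on the y scale) above the other 9 embryos in 5 members (1.09%) for embryos 5, 6 and 7, where 1.28% of all genes did, in 1 (0.218%, all genes 2.53%) for embryos 8, 9 and 10, in 1 (0.218%, all genes 0.343%) for embryos 2, 3 and 11 and in 0 (all genes 0.212%) for embryos 1, 4 and 12. Embryos 8, 9 and 10 lay 2-fold below the other 9 in 2 members (0.436%, all genes 1.24%). The other sets did so in 0, where the shares of all genes were 0.452% for embryos 5, 6 and 7, 0.0136% for embryos 2, 3 and 11 and 0.158% for embryos 1, 4 and 12. In the 235 members with 1 FPKM in no embryo, a step of 1 on the y scale was not possible. Cm05G00869.gene stood at 43.0, 50.6 and 47.4 FPKM in callus 1, 2 and 6, at 8.62, 10.1 and 11.3 FPKM in callus 3, 4 and 5, at 5.88, 4.69 and 6.06 FPKM in embryos 5, 6 and 7, and at 0.07 to 0.59 FPKM in the other embryos. Embryos 5, 6 and 7 were here nearer to callus 3, 4 and 5 than to the remaining embryos. In Cm05G00255.gene they were above callus 3, 4 and 5: it had 96.8, 111 and 99.6 FPKM in callus 1, 2 and 6, 1.84, 2.41 and 1.81 FPKM in callus 3, 4 and 5, 6.45, 3.67 and 4.82 FPKM in embryos 5, 6 and 7, and at most 0.39 FPKM elsewhere.

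Cm03G01375.gene had 22.7, 24.96 and 26.2 FPKM in callus 1, 2 and 6, 2.44, 5.02 and 3.76 FPKM in callus 3, 4 and 5, 3.18, 5.69 and 2.86 FPKM in embryos 8, 9 and 10, and at most 0.71 FPKM in another embryo. Embryos 8, 9 and 10 overlapped callus 3, 4 and 5 in this gene. The same overlap was seen in Cm06G00090.gene, with 25.4, 27.1 and 27.2 FPKM in callus 1, 2 and 6, 4.34, 4.30 and 3.84 FPKM in callus 3, 4 and 5, 3.97, 4.91 and 6.12 FPKM in embryos 8, 9 and 10, and 0.39 to 1.92 FPKM in the rest.

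Cm10G00388.gene was the member with embryos 2, 3 and 11 at least 2-fold above the others. It stood at 47.3, 32.3 and 44.6 FPKM in callus 1, 2 and 6, at 0, 0.59 and 0.10 FPKM in callus 3, 4 and 5, at 8.39, 4.94 and 5.18 FPKM in embryos 2, 3 and 11, and at 0 to 1.91 FPKM in the other embryos. In the other member with this set clear above, Cm11G01273.gene, the step was small: embryos 2, 3 and 11 had only 0.24, 0.23 and 0.30 FPKM, against 0.01 to 0.21 FPKM in the other embryos, 0.20, 0.14 and 0.32 FPKM in callus 3, 4 and 5 and 6.34, 5.51 and 5.96 FPKM in callus 1, 2 and 6.

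Cm09G00433.gene was highest among embryos in 1, 4 and 12, at 17.8, 11.4 and 24.4 FPKM, with 0.38 to 6.38 FPKM in the other embryos. It had 125, 149 and 153 FPKM in callus 1, 2 and 6 and 23.3, 19.4 and 27.0 FPKM in callus 3, 4 and 5, so embryo 12 lay within the range of callus 3, 4 and 5. Cm05G02546.gene showed the same embryo pattern at a lower level, with 1.78, 3.02 and 4.51 FPKM in embryos 1, 4 and 12 and at most 0.93 FPKM in the others. Its callus levels were 42.4, 40.3 and 46.0 FPKM in callus 1, 2 and 6 and 11.3, 13.6 and 12.6 FPKM in callus 3, 4 and 5.

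Against callus 3, 4 and 5, each embryo set was more often wholly below than wholly above, in the members as over all genes. Embryos 5, 6 and 7 were wholly above callus 3, 4 and 5 in 73 members (15.9%, all genes 31.4%) and wholly below in 153 (33.3%, all genes 42.7%). Embryos 8, 9 and 10 were above in 34 (7.41%, all genes 32.0%) and below in 173 (37.7%, all genes 39.3%). For embryos 2, 3 and 11 the counts were 22 above (4.79%, all genes 23.4%) and 207 below (45.1%, all genes 45.5%), and for embryos 1, 4 and 12 they were 22 above (4.79%, all genes 25.7%) and 180 below (39.2%, all genes 33.1%). A set with any library at 0 cannot be wholly above, and each embryo library listed 78 to 176 members at 0. No set can be wholly below where one of callus 3, 4 and 5 is at 0, and these listed 98 to 125 members at 0. How far zeros set these shares was not tested.

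Members often had another member close by in ID order, a property that the rule did not use. Another member lay within 5 places for 130 of the 459 (28.3%), and 11.2% of all 22131 genes had a member other than themselves that near. For the next place on either side the shares were 16.6% of members (76 genes, in 34 runs of 2 or more) and 2.61% of all genes. Genes that were not members but stood next to one had callus 1, 2 and 6 above all other libraries in 148 of 502 cases (29.5%), against 15.6% of the other 21170. The file gives IDs and not coordinates, so distances in the genome are not known. Neighbouring genes can be near-identical copies that share reads, and whether these do was not tested.

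The longest run held 6 members in a row, Cm04G02243.gene to Cm04G02248.gene. In callus 1, 2 and 6 they stood at 13.4, 16.6 and 15.6 FPKM (Cm04G02243.gene), 11.2, 9.84 and 12.9 FPKM (Cm04G02244.gene), 16.7, 18.6 and 19.04 FPKM (Cm04G02245.gene), 18.0, 20.7 and 15.7 FPKM (Cm04G02246.gene), 28.5, 27.0 and 27.7 FPKM (Cm04G02247.gene) and 19.6, 23.7 and 21.5 FPKM (Cm04G02248.gene). In callus 3, 4 and 5 Cm04G02247.gene had 2.34, 2.56 and 1.87 FPKM and the other 5 genes had 0 to 0.51 FPKM. Among embryos the highest library was embryo 3 for Cm04G02244.gene, Cm04G02247.gene and Cm04G02248.gene (1.16, 4.39 and 3.73 FPKM), embryo 4 for Cm04G02245.gene and Cm04G02246.gene (2.19 and 2.44 FPKM) and embryo 7 for Cm04G02243.gene (1.43 FPKM). Callus 3, 4 and 5 were not above the embryos in any of the 6.

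**Figure D4:**
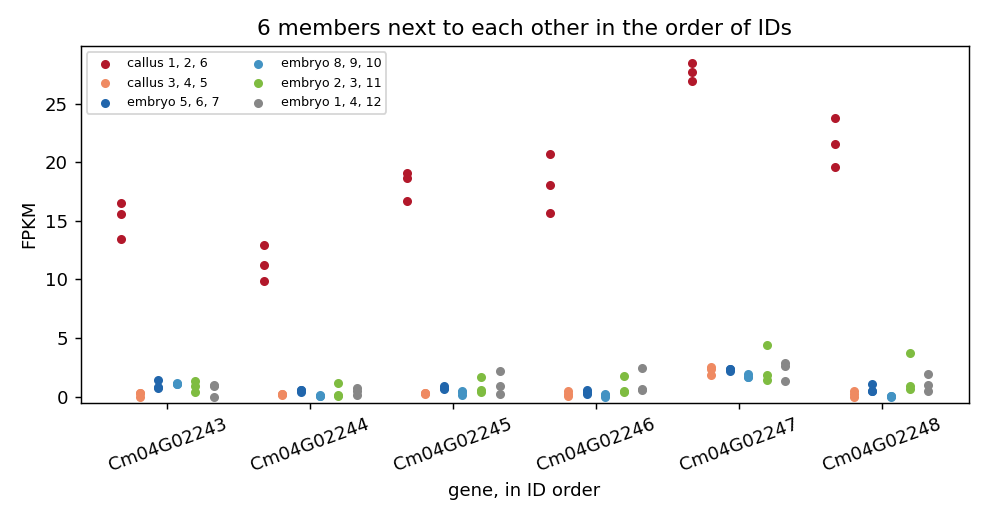
FPKM of the 6 members that follow each other in ID order, each point 1 library, coloured by set. Callus 1, 2 and 6 stand at 9.84 to 28.5 FPKM in the 6 genes, and no other library exceeds 4.39 FPKM.

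Of the 4 runs of 3, the one with the largest summed gap, Cm07G00036.gene to Cm07G00038.gene, had 3 members with their highest embryo level in embryos 5, 6 and 7. Cm07G00037.gene was the most abundant, at 104, 119 and 113 FPKM in callus 1, 2 and 6, 1.19, 6.28 and 4.26 FPKM in callus 3, 4 and 5, 11.6, 9.75 and 8.55 FPKM in embryos 5, 6 and 7, and 0.25 to 3.82 FPKM in the other embryos. Cm07G00036.gene stood at 27.9, 30.2 and 28.1 FPKM in callus 1, 2 and 6, at 0.29, 0.60 and 0.64 FPKM in callus 3, 4 and 5, and at 2.87, 1.48 and 1.91 FPKM in embryos 5, 6 and 7. In Cm07G00038.gene the levels were 9.71, 9.04 and 9.98 FPKM in callus 1, 2 and 6, 0.11, 0.36 and 0.23 FPKM in callus 3, 4 and 5, and 0.55, 0.63 and 0.66 FPKM in embryos 5, 6 and 7. In each of the 3 genes embryos 5, 6 and 7 lay above all of callus 3, 4 and 5 and above the other embryos.

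Runs are one view of placement; ID prefixes are another. The prefix Cm03 had 59 members, 3.71% of its genes with 1 FPKM in 3 or more libraries, and Cm00 had 16 (4.66%). The lowest shares were those of Cm12 (15 members, 0.981%) and Cm08 (22 members, 1.16%), and the other prefixes lay between 1.47% and 2.52%.

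The limit of the rule cuts through a continuous range. Just inside it were Cm07G00022.gene (gap 1.506), Cm05G02546.gene (gap 1.504) and Cm08G00555.gene (gap 1.502). Just outside were Cm10G02156.gene, Cm11G00344.gene and Cm05G01429.gene, with gaps of 1.498, 1.493 and 1.492. Cm08G00555.gene, inside, had at least 34.0 FPKM in callus 1, 2 and 6 and at most 11.4 FPKM elsewhere, in callus 5. Cm11G00344.gene, outside, had at least 27.4 FPKM in callus 1, 2 and 6 and at most 9.08 FPKM elsewhere, in somatic embryo 8. Cm07G00022.gene was limited by embryos 8, 9 and 10, at 4.85, 4.69 and 2.61 FPKM, with 16.2, 15.6 and 17.7 FPKM in callus 1, 2 and 6 and 1.92, 2.13 and 2.10 FPKM in callus 3, 4 and 5.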

How the data were processed

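The authors deposited 1 FPKM table that covers all libraries. Per the submitters' processing notes, FastQC 0.11.9, Trimmomatic and STAR 2.7.10b were used. Which program computed FPKM, on which build and gene models, is not given in the sources used here. Of its columns, 18 match a sample title and were analysed, and 195 were not used. Values were transformed to log2(FPKM + 1); fold changes on this scale understate the change of low genes. Genes with at least 1 FPKM in 3 or more libraries were tested with limma 3.58.1 (R 4.3.3, statmod 1.5.0, trend and robust settings) and called at an adjusted p under 0.05 and a log2 fold change past 1 in either direction; the steps were tested on simulated data. No reads could be recovered: in 4 pairs of libraries, at most 13.0% of genes at 0.3 to 1 FPKM lay within 0.02 (log2) of steps of whole reads, against 6.92% for a typical offset in that pair. No count model was used.

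The members, the sets of libraries and the rule for named genes were chosen with earlier results of these data known. Named are the 8 members with the largest gap, the 6 most abundant others, 3 on each side of the limit, the 5 highest and 5 lowest positions, 2 for each embryo set and the 2 longest runs of neighbours (of 4 runs tied at 3, that with the largest summed gap). Gene lists fixed by name could not be matched to IDs and were not run. Alternatives were another pseudocount, scaling, filter, gap, fit and window of places, blocking by replicate number, and leaving out libraries.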

Additional observations from a re-analysis of the deposited data

How the results depend on the processing

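The 459 members became 709 with a pseudocount of 0.1 (all 459 among them), 832 with a gap of at least 1, 254 with a gap of at least 2 and 212 with 1 FPKM required in 6 libraries. That last limit removes genes at 1 FPKM in callus 1, 2 and 6 alone, and those that also reach it in too few other libraries. With median-of-ratios scaling they were 439, of which 437 were shared, on the TPM scale 459 (457 shared), and 460 to 487 with 1 library left out. Members called in callus 3, 4 and 5 against embryos, 89, numbered 169 with a pseudocount of 0.1 (166 higher), 178 with a gap of at least 1 (176 higher), 48 with a gap of at least 2, and 81 to 96 with 1 library left out; the share of members called higher, 19.4%, was 23.4%, 21.2% and 18.9% under the first 3 of these, against 7.99%, 6.9% and 6.9% of all genes. Members with callus 3, 4 and 5 above all embryos, 112 (24.4%), numbered 230 (27.6%) and 63 (24.8%) with gaps of at least 1 and 2. With a pseudocount of 0.1 they numbered 139 of 709, a lower share (19.6%). With 1 FPKM in 6 libraries they numbered 95 of 212 (44.8%). The median position, 0.0453, was 0.0907 with a pseudocount of 0.1, 0.0805 with a gap of at least 1 and 0.249 with 1 FPKM in 6 libraries; the lost genes are those near the floor. With gaps of at least 1 and 2 (832 and 254 members), embryos 5, 6 and 7 were clear above the other embryos in 143 and 41. Embryos 8, 9 and 10 were so in 58 and 10, and embryos 1, 4 and 12 in 24 and 7. With a pseudocount of 0.1 (709 members) embryos 5, 6 and 7 were so in 97, embryos 8, 9 and 10 in 37 and embryos 1, 4 and 12 in 17. Embryos 2, 3 and 11 were so in 1 with a gap of at least 2, with median-of-ratios scaling or with 1 FPKM in 6 libraries. With that last limit embryos 8, 9 and 10 were so in 16. The number of members differs between these settings, and the shares of members and of all genes were not computed for them. With 1 library left out the range was 26 to 85 for embryos 8, 9 and 10, 2 to 7 for embryos 2, 3 and 11 and 12 to 19 for embryos 1, 4 and 12. The share of members with another member near, 28.3%, was 37.6% and 23.2% with gaps of at least 1 and 2, 16.6% for the next place and 38.6% within 10 places; more members and wider windows raise it by construction. Genes called between callus and embryo, 4835 (2504 higher), fell to 2743 (1527 higher) without callus 1, 2 and 6. With median-of-ratios scaling they were 4680, and the balance turned: 2070 were higher and 2610 lower, against 2504 higher and 2331 lower. Of 41 named members 4 fell under the gap limit in a rescaled table: Cm05G00573.gene (1.40), Cm07G00022.gene (1.42) and Cm10G00388.gene (1.48) with median-of-ratios scaling, and Cm07G00022.gene (1.47) and Cm05G02546.gene (1.499) on the TPM scale. Beyond what a changed filter, gap or window sets by its construction, the cause of these shifts was not tested.

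A replicate block, fitted to the libraries numbered 1 to 6 in callus and embryo, gave 4553 called genes, and the unblocked fit to these libraries gave 4654. Deviations of same-numbered libraries correlated from -0.0826 to 0.0436 and no library correlated best with its own number, so the numbers gave no sign of pairing. Read depth is unknown, so for low genes no limit from depth can be given.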
